A study of Mus musculus with 17 samples.

Results

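The transcription factors that drive the formation of muscle cells, and 2 genes of satellite cells, were followed across 17 arrays of tibialis anterior, a mouse shin muscle made mostly of fast fibres. The members were the 9 genes Myod1, Myf5, Myog, Myf6, Mef2a, Mef2c, Mef2d, Pax7 and Cdh15. They were chosen by symbol: every probe set listed with exactly 1 of these symbols was taken, which gave 18 of 20380 single-symbol probe sets and 9 of 12393 genes. Each of Myod1, Myf5, Myog, Myf6, Pax7 and Cdh15 had 1 probe set, Mef2a and Mef2c had 5 each, and Mef2d had 2. No member was dropped by a filter on level, since none was applied.

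The 17 arrays came from 3 groups of mice aged 56 days, labelled as male, with the muscles of both legs pooled. There were 6 arrays of normal wild-type mice, 6 of mdx mice, which lack full dystrophin, and 5 of fiona mice, which are mdx mice that also carry a utrophin transgene. Utrophin is a relative of dystrophin. The strain background, the promoter of the transgene and the number of founder lines are not given in the sources used here. Every array is labelled as a biological replicate, and their number limits the precision of all values.

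Satellite cells are the stem cells of skeletal muscle and lie beside the fibres. After damage they divide, and their progeny fuse into new or repaired fibres. Pax7 marks the resting and dividing satellite cell, Myf5 and Myod1 mark commitment to the muscle fate, Myog drives the last step of differentiation, and Myf6 is expressed mainly in mature fibres. These 4 factors of the MyoD family bind short sequences called E-boxes, and the MEF2 proteins bind A/T-rich sequences beside them in many muscle genes. Cdh15 encodes M-cadherin, an adhesion protein of satellite cells and fusing myoblasts. Muscle of mdx mice undergoes repeated cycles of fibre loss and regeneration.

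Some features of the whole series bear on the values that follow. Array medians ranged from 3.52 to 3.82 on the log2 scale. The level of 15 unspiked bacterial control probe sets, used here as the lower limit of measurement, ranged from 2.64 to 2.99. With the group means subtracted, a single component held 42.6% of the variance that was left, and its sign split the arrays into 2 sets that no label names. Set 1 was made up of arrays 3, 4 and 5 of normal mice, the same numbers of mdx mice, and fiona arrays 1 and 4. The other 9 formed set 2. The sets were drawn from these same values, so fits by set or with the set as a block are descriptions and no independent support. On 7 arrays the sex-linked transcripts Xist and Eif2s3y had a female pattern, against the labels: 1 normal, 2 mdx and 4 fiona arrays. On mdx array 6 both were present, with Xist at 5.396 and Eif2s3y at 8.11. The fits by sex pattern assigned it on Eif2s3y alone. Mdx array 6, whose sex is unclear, therefore counted there as an array with the male pattern. In mdx array 1 the 3′ control of Gapdh exceeded the 5′ control by 2.54, against -0.43 to 0.06 on the other 16 arrays. This measure of RNA quality thus stood apart. The same difference for the actin controls was 0.615 there, within the range of -0.048 to 0.846 over all arrays. On 1 of its 3 probe sets the dystrophin gene Dmd averaged 6.64 ± 0.20 for normal muscle (SD, n = 6), 3.35 ± 0.10 for mdx (n = 6) and 3.39 ± 0.14 for fiona (n = 5). Utrn, the utrophin gene, lay between 2.57 and 2.77 on all normal and mdx arrays on a dim probe set, and between 2.68 and 7.02 on fiona arrays. Its brightest probe set averaged 6.81 ± 0.26 in normal muscle (SD, n = 6), 6.98 ± 0.39 in mdx (n = 6) and 6.57 ± 0.82 in fiona (n = 5). The 8 markers of fast fibres had a mean level of 14.5 to 14.9 in normal, 14.5 to 14.8 in mdx and 14.6 to 14.8 in fiona arrays.

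Across the 18 probe sets, the comparison of mdx with normal muscle, which addresses what the loss of dystrophin changes, called 1 member higher and 0 lower. Calls were made at an adjusted p under 0.05 in limma, with Benjamini-Hochberg adjustment over all 20380 probe sets. The background of that comparison was 2.68% of probe sets called higher and 1.37% called lower. The comparison of fiona with mdx muscle, which addresses what the transgene changes, called 1 member higher and 2 lower, against 34.1% and 6.05% of all probe sets. A female pattern was on 4 of 5 fiona, 2 of 6 mdx and 1 of 6 normal arrays. Transgene and sex pattern are therefore partly confounded where fiona is compared with mdx or with normal muscle. Fiona and normal muscle differed in 0 members by limma, and in 2 of 18 at an unadjusted p under 0.05, which 21.6% of all probe sets passed. There 0% of all probe sets were called higher and 0.00491% lower. Unadjusted, 4 of 18 members passed 0.05 for mdx against normal and 3 of 18 for fiona against mdx, beside 17.5% and 49.3% of all probe sets. The members' counts at this threshold were thus near or below the background.

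The large share of higher calls in fiona against mdx depended on the scaling. As deposited, 8187 probe sets were called and 85% of them were higher in fiona. With arrays centred on their medians, 2381 were called and 55.9% were higher, and after quantile normalization 2899 were called and 71.7% were higher. The median difference of all probe sets was 0.08 as deposited and -0.02 after median centring. Small differences in this comparison are therefore given with this shift in view. The comparisons share their mdx or normal arrays, so opposite values in both are not independent of each other.

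**Figure D1:**
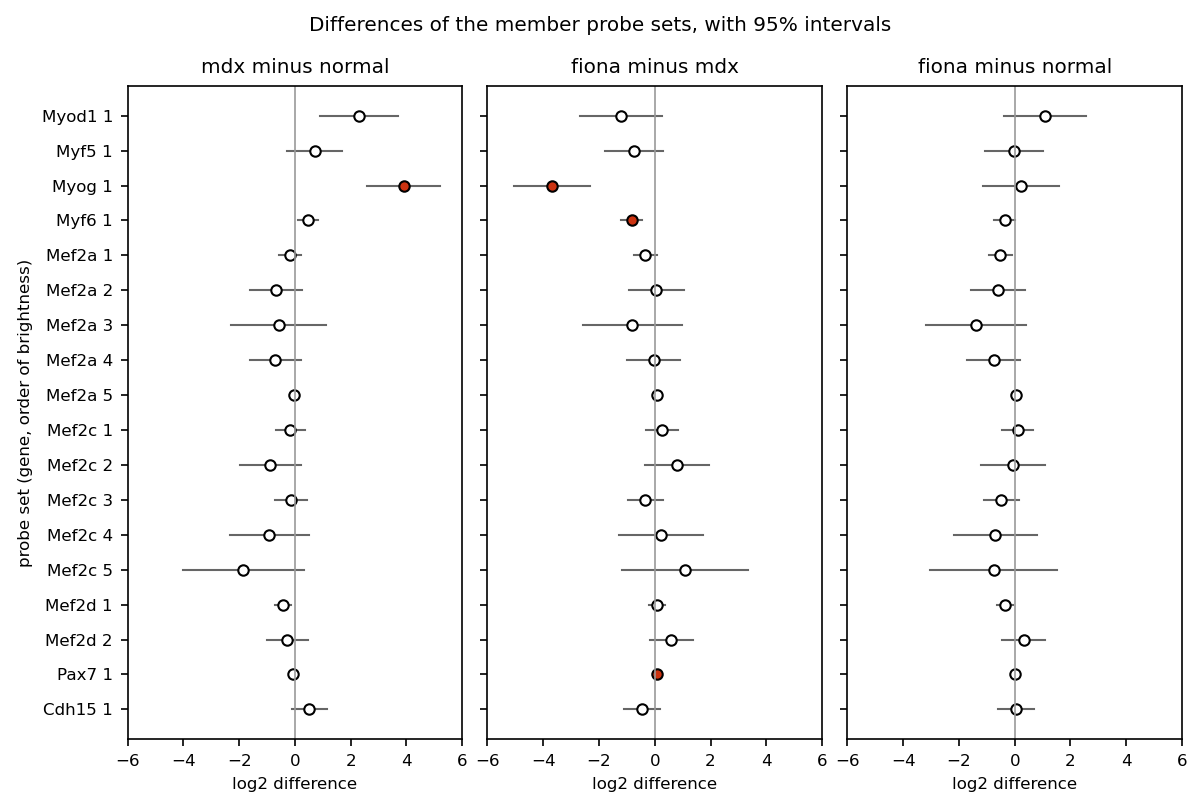
Log2 differences of the 18 member probe sets (x axis) in each comparison, with 95% intervals from limma, and with the probe sets of each gene numbered by brightness (y axis). Filled points passed an adjusted p under 0.05: Myog in mdx minus normal, and Myog, Myf6 and Pax7 in fiona minus mdx.

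Myogenin (Myog), the MyoD family member of terminal differentiation, was the member called in both comparisons with mdx muscle. Its log2 level on normal arrays 1 to 6 was 3.21, 3.36, 3.21, 3.21, 3.11 and 3.19. On mdx arrays 1 to 6 it measured 7.84, 3.75, 8.23, 8.995, 7.19 and 6.67. Fiona arrays 1 to 5 had 3.41, 3.35, 3.47, 3.40 and 3.55. All mdx arrays lay above every normal and every fiona array, but mdx array 2 stood only a little above them. The mean was 7.11 ± 1.84 in mdx (SD, n = 6), 3.22 ± 0.08 in normal (n = 6) and 3.44 ± 0.08 in fiona muscle (n = 5). The mdx level was 14.9-fold that of normal muscle (log2 difference 3.90, SE 0.61, adjusted p = 0.00153 in limma). An exact two-sided permutation test gave p = 0.00216, the smallest that 6 against 6 arrays can give. In fiona muscle Myog was 12.8-fold lower than in mdx muscle (log2 difference -3.68, SE 0.64, adjusted p = 0.00404 in limma, exact permutation p = 0.00433). In bulk muscle, fewer cells of a type and less RNA per cell cannot be told apart.

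The Myog levels of fiona and normal muscle lay close together, near the lower limit of measurement. Their means were 0.54 and 0.44 above the control level of their arrays. Fiona exceeded normal muscle by 0.22 on the log2 scale, with a 95% interval from -1.15 to 1.59 that the wide mdx spread sets (adjusted p = 0.870 in limma). In an exact permutation test, which uses only these 2 groups, p was 0.00649, and 4 of 5 fiona arrays exceeded the highest normal array by any amount. Relative to the control level the difference was 0.10. A female pattern was on 4 of 5 fiona and 1 of 6 normal arrays. With the sex pattern as a covariate the difference turned to -0.34 (adjusted p = 0.807 in limma).

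The Myog calls were kept when any 1 of the 17 arrays was left out. With the sex pattern as a covariate the differences were 3.75 and -4.09 (adjusted p = 0.00230 and 0.00303 in limma). Without mdx array 2 the log2 differences became 4.57 against normal and -4.35 against fiona, and without mdx array 4 they became 3.52 and -3.30. In set 1 the differences were 4.96 and -4.74, and in set 2, which holds mdx array 2, they were 2.83 and -2.63. Set 2 alone did not pass the test (adjusted p = 0.224 and 0.251 in limma), nor did the arrays with a male pattern, which include 1 fiona array (3.24, adjusted p = 0.0883, and -3.06, adjusted p = 0.168).

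**Figure D2:**
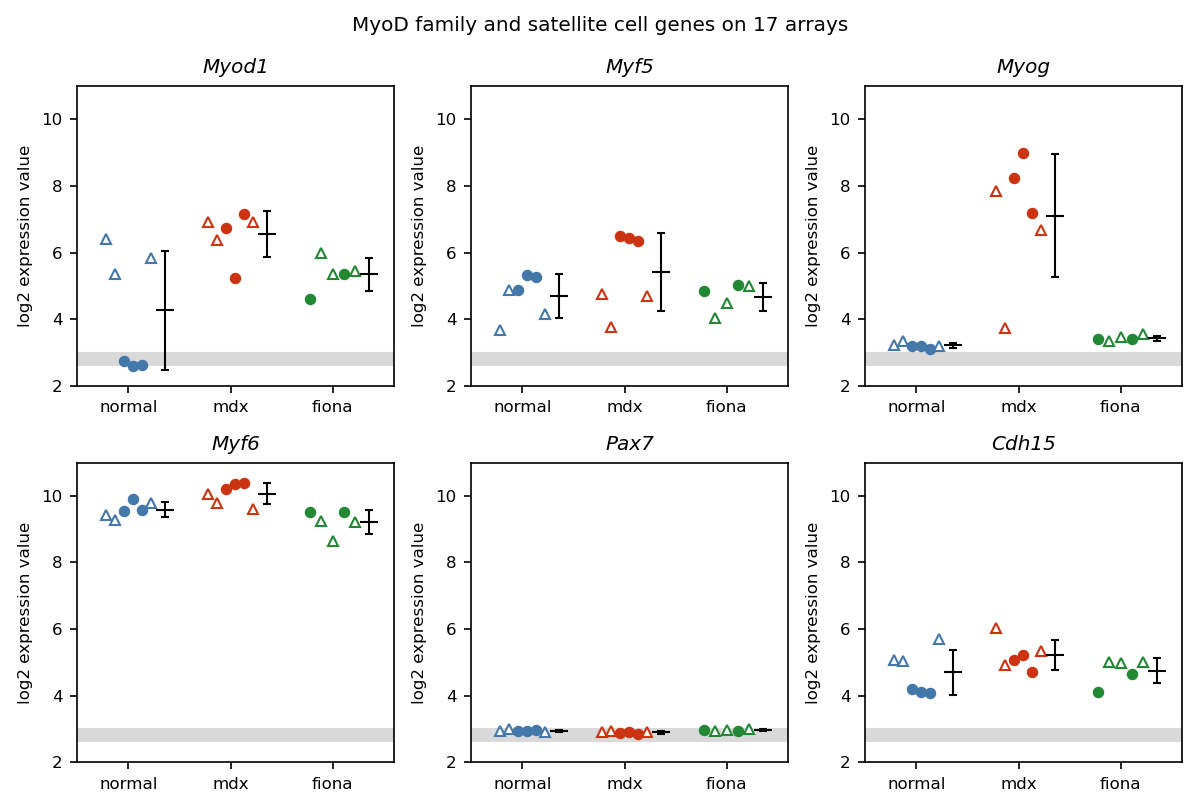
Deposited log2 values (y axis) of 4 MyoD family genes, Pax7 and Cdh15 on each array, by group (x axis). Filled circles are arrays of set 1, open triangles arrays of set 2, black bars the group mean ± SD, and the grey band the range of the bacterial control level over the arrays. Myog was high on 5 of the mdx arrays and at 3.75 on mdx array 2. Pax7 lay near the grey band in all groups.

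Promoter sequences show the kind of site these factors read. The 250 bases before the transcription start of Myog, chr1:134289754-134290003 on the + strand, are printed with E-boxes and the A/T-rich core that MEF2 binds in capitals. Also shown are Chrna1 and Chrng, subunits of the acetylcholine receptor, and Tnnt2, the cardiac and embryonic troponin T. They were chosen for the most copies of the E-box CAGCTG among the listed differentiation genes with a matched promoter window. All 3, like Myog, passed the test as lower in fiona when set against mdx. In that comparison 21 of 29 measured genes of the list they come from were called lower, beside 6.88% of all genes. Chrng exceeded normal muscle in mdx by 1.38 without passing the test (adjusted p = 0.0858 in limma) and was 1.29 lower in fiona than in mdx (adjusted p = 0.0309). That call was lost in 5 of 17 fits that left out an array (mdx 3 or fiona 1, 3, 4 or 5) and with median-centred arrays. They lie at chr2:73580339-73580588 (- strand), chr1:87205561-87205810 (+ strand) and chr1:135836084-135836333 (+ strand). Sequences and coordinates are RefSeq's, build GRCm38.p6, and Chrng was chosen after its values were seen.
Myog: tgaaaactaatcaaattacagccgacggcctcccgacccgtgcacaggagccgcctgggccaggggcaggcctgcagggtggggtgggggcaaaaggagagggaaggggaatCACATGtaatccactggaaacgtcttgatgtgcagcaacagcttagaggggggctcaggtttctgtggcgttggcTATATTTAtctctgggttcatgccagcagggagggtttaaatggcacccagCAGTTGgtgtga
Chrna1: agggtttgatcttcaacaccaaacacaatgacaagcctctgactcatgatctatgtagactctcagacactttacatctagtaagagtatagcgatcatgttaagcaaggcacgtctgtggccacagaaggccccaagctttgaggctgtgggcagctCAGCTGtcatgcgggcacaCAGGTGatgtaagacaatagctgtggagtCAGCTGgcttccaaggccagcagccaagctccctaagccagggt
Chrng: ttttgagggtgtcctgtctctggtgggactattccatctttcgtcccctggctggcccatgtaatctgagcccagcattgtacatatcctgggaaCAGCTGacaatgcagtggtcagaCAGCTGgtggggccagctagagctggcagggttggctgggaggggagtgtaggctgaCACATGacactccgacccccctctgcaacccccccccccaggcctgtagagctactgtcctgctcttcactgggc
Tnnt2: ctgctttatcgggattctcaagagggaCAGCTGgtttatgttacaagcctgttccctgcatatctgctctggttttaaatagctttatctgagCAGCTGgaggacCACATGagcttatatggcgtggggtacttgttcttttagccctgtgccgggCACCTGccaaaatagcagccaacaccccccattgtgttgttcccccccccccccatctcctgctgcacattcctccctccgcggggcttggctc
The motifs searched on both strands were the E-box CANNTG, its form CAGCTG, and the MEF2 core TANNNNTA with each N being A or T, which also matches some TATA boxes. The Myog window held 2 E-boxes that start 138 and 12 bases before the transcription start, and 1 MEF2 core that starts 63 bases before it. E-boxes occurred in 66.2% of 32851 promoter windows of this length, and the MEF2 core in 8.56%. The windows of Chrna1, Chrng and Tnnt2 each held 2 copies of CAGCTG, which 1.26% of all windows did. They were picked with these counts known. They are the 3 windows with 2 copies among 30 windows of the list of regenerating fibres described further on. Of these 30, 9 held CAGCTG at all, beside 13% of all windows, and the overlapping windows of Tnni1 share the same copy. Windows were matched for 22 of the 31 genes of that list. The second window of Tnnt2 and the windows of Myh3 and Myl4, which changed more than Chrna1 and Chrng, held no CAGCTG. RefSeq promoters were matched for 7 of the 9 members, with 9 windows, of which 4 held an E-box and 2 the MEF2 core. A match describes letters in a window and shows no binding.

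MyoD (Myod1), the factor that commits cells to the muscle fate, varied most among normal arrays. It measured 6.41, 5.37, 2.75, 2.61, 2.63 and 5.85 on normal arrays 1 to 6, so that 3 of them, all of set 1, lay at or under the control level. The mdx arrays ranged from 5.25 to 7.16 with a mean of 6.57 ± 0.69 (SD, n = 6). Normal muscle averaged 4.27 ± 1.79 (n = 6) and fiona muscle 5.35 ± 0.49 (n = 5), with fiona arrays from 4.59 to 5.98. The order of the means was thus mdx, fiona, normal, but groups overlapped in every comparison. Fiona exceeded normal by at least 2.15 in set 1 and differed from it by -0.28 in set 2, so the order of these 2 groups turned with the array set. The mdx excess over normal, at least 2.22 on the log2 scale, did not pass the test (adjusted p = 0.0672 in limma, exact permutation p = 0.0216). It was at least 3.57 in set 1, where all normal arrays lay at the floor, and 0.88 in set 2. With the array set as a block it passed (adjusted p = 0.0102), as it did without normal array 1 (0.0232) or normal array 6 (0.0429). That block was drawn from these same values and raised the calls among all probe sets from 826 to 1775. For fiona against mdx the difference was -1.22 (adjusted p = 0.170 in limma, exact permutation p = 0.0152), with -1.42 in set 1 and -1.16 in set 2. It passed with the array set as a block (-1.37, adjusted p = 0.0468) and with only these 2 groups in the fit (adjusted p = 0.0304).

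MRF4 (Myf6), the MyoD family member of mature fibres, was lower in fiona than in mdx muscle. On fiona arrays 1 to 5 it measured 9.51, 9.24, 8.64, 9.53 and 9.21, and on mdx arrays 1 to 6 it measured 10.05, 9.79, 10.20, 10.34, 10.38 and 9.59. The groups did not overlap, and the gap between fiona array 4 and mdx array 6 was narrow. Normal arrays 1 to 6 measured 9.42, 9.27, 9.54, 9.91, 9.58 and 9.79, between the other groups on average. The means were 9.22 ± 0.36 in fiona (SD, n = 5), 10.06 ± 0.31 in mdx (n = 6) and 9.59 ± 0.24 in normal muscle (n = 6). Fiona was 1.78-fold lower than mdx (log2 difference -0.83, SE 0.18, adjusted p = 0.0130 in limma, exact permutation p = 0.00433). The difference was -0.79 in set 1 and -0.78 in set 2, and the call was kept when any 1 array was left out. Among arrays with a male pattern it was -0.47 and did not pass (adjusted p = 0.360 in limma). Neither mdx against normal (0.47, adjusted p = 0.155 in limma) nor fiona against normal (-0.36, adjusted p = 0.242 in limma) passed, although mdx exceeded normal with the array set as a block (adjusted p = 0.0318).

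Myf5, which like Myod1 marks committed cells, passed in no comparison over all arrays. It averaged 4.70 ± 0.65 in normal (SD, n = 6), 5.42 ± 1.16 in mdx (n = 6) and 4.68 ± 0.42 in fiona muscle (n = 5). The mdx arrays parted by array set. Arrays 3, 4 and 5 measured 6.51, 6.43 and 6.34, and arrays 1, 2 and 6 measured 4.76, 3.77 and 4.69. The mdx difference from normal was 1.26 in set 1 (adjusted p = 0.00866 in limma for that set alone) and 0.17 in set 2, and 0.72 over all arrays (adjusted p = 0.345). Fiona differed from mdx by -0.74 (adjusted p = 0.241 in limma), from -1.49 in set 1 to 0.10 in set 2.

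Pax7, the marker of satellite cells, lay near the lower limit of measurement on all arrays. The mean exceeded the control level by 0.18 for normal, 0.21 for mdx and 0.08 for fiona arrays. On normal arrays 1 to 6 it measured 2.94, 3.01, 2.93, 2.95, 2.97 and 2.90. The mdx arrays 1 to 6 measured 2.93, 2.94, 2.87, 2.91, 2.85 and 2.90, and the fiona arrays 1 to 5 measured 2.96, 2.95, 2.98, 2.96 and 3.00. All fiona arrays lay above all mdx arrays, by as little as 0.01. The test called fiona higher than mdx by 0.07 (SE 0.02, adjusted p = 0.0356 in limma, exact permutation p = 0.00433), which is below the median difference of 0.08 over all probe sets. With median-centred arrays the difference became -0.03, after quantile normalization -0.04, and relative to the control level -0.13. Leaving out any of 6 arrays (mdx 3, 5 or 6, or fiona 1, 3 or 5) also ended the call, with adjusted p values up to 0.0806. For this probe set a change in Pax7 transcript was not detectable at this signal.

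M-cadherin (Cdh15) passed in no comparison. It measured 4.71 ± 0.67 in normal (SD, n = 6), 5.22 ± 0.45 in mdx (n = 6) and 4.76 ± 0.39 in fiona muscle (n = 5). The array sets separated normal arrays more than the genotypes did. Normal arrays 3, 4 and 5 of set 1 ranged from 4.08 to 4.21, and the other 3 from 5.03 to 5.70. Mdx exceeded normal by 0.52 (95% interval -0.11 to 1.14, adjusted p = 0.329 in limma), and fiona differed from mdx by -0.46 (adjusted p = 0.247). With the array set as a block, fiona was called lower than mdx.

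The MEF2 factors, partners of the MyoD family in muscle genes, were called in no comparison on any of their 12 probe sets. Mef2d came nearest on its brighter probe set, with 8.38 ± 0.19 in normal (SD, n = 6), 7.96 ± 0.20 in mdx (n = 6) and 8.05 ± 0.30 in fiona muscle (n = 5). The mdx arrays ranged from 7.77 to 8.24 and the normal arrays from 8.21 to 8.74, so that they overlapped slightly. The log2 difference was -0.42 (SE 0.13, adjusted p = 0.0899 in limma, exact permutation p = 0.00433), with -0.32 in set 1 and -0.52 in set 2. Without fiona array 5 it passed (adjusted p = 0.0423). The dimmer Mef2d probe set differed by -0.27 (adjusted p = 0.602 in limma).

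Mef2c, which is needed for the sarcomere of fibres, gave unlike values on its 5 probe sets. On the brightest, all 17 arrays lay between 11.1 and 12.4, and mdx differed from normal by -0.16 (95% interval -0.69 to 0.38). On the dimmest, mdx arrays 1, 2 and 6 measured 3.18, 6.995 and 5.97 and fiona array 2 measured 5.55, while the other 13 arrays lay between 8.55 and 9.63. The mdx arrays with low values were all those of set 2. With fiona array 2, they also had the highest differences between the Gapdh controls. These were 2.54, -0.04 and -0.02 on mdx arrays 1, 2 and 6 and 0.06 on fiona array 2. Fiona array 3 came next at -0.05 without a low value. The actin controls gave another order, with 0.615, 0.009 and -0.048 on mdx arrays 1, 2 and 6 and 0.075 on fiona array 2. Over all 17 arrays the actin differences ranged from -0.048 to 0.846. A link between RNA quality and the low values was not tested. On this probe set the difference between mdx and normal was -1.85 over all arrays (adjusted p = 0.325 in limma), 0.09 in set 1 and -3.78 in set 2. The second and the fourth brightest probe sets differed by -1.87 and -1.85 in set 2, and by 0.12 and 0.03 in set 1. Mdx array 1 stood apart on the Gapdh measure but not on the actin measure. Without this array, the difference between mdx and normal over all arrays went from -1.85 to -0.99 on the dimmest probe set. It went from -0.91 to -0.41 on the fourth and from -0.88 to -0.41 on the second. On the third it turned from -0.14 to 0.09. None of these values passed the test.

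Mef2a, the MEF2 factor with the widest expression, behaved likewise. Its brightest probe set measured 10.03 ± 0.13 in normal (SD, n = 6), 9.85 ± 0.25 in mdx (n = 6) and 9.50 ± 0.54 in fiona muscle (n = 5). Fiona arrays 1 and 4 of set 1 measured 10.20 and 9.96, and fiona arrays 2, 3 and 5 of set 2 measured 9.25, 9.03 and 9.09. Fiona differed from normal by -0.52 over all arrays (adjusted p = 0.212 in limma), by 0.01 in set 1 and by -0.86 in set 2, where it passed (adjusted p = 0.0224). On the second brightest probe set, mdx array 1 measured 6.23 and the other 16 arrays lay between 8.37 and 9.55. There fiona differed from mdx by 0.06 with all arrays and by -0.44 without mdx array 1 (adjusted p = 0.0462 in limma). The dimmest Mef2a probe set lay close to the control level in all groups, with means from 3.08 to 3.14.

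**Figure D3:**
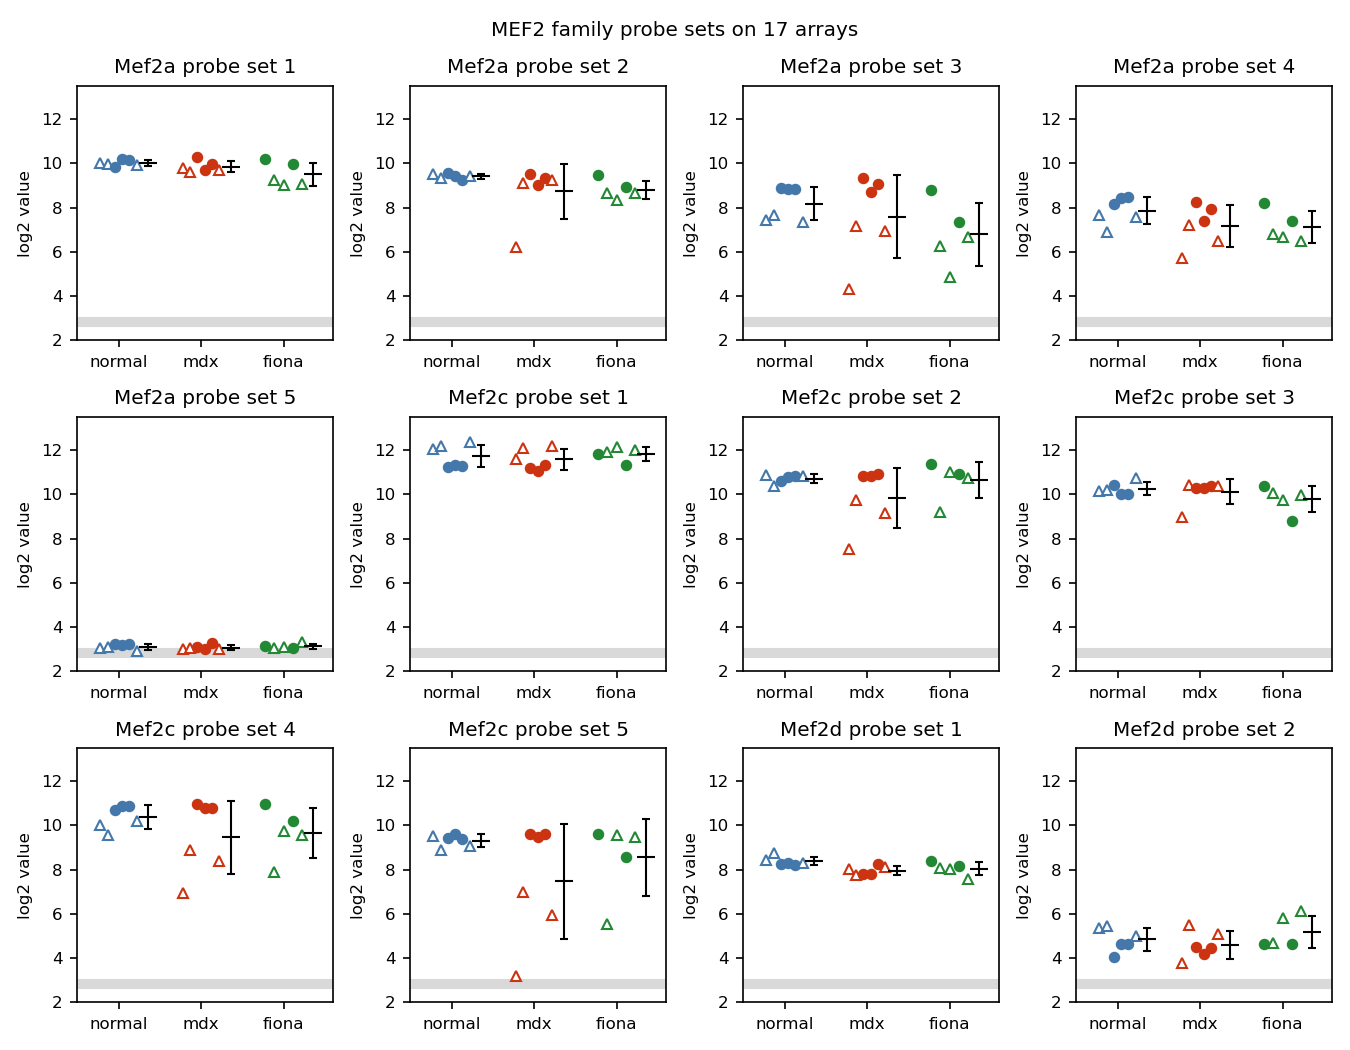
Deposited log2 values (y axis) of the 12 probe sets of Mef2a, Mef2c and Mef2d on each array, by group (x axis), numbered by brightness within a gene. Filled circles are arrays of set 1, open triangles arrays of set 2, black bars the mean ± SD, and the grey band the control level. The lowest mdx values of Mef2a probe set 2 (6.23) and Mef2c probe set 5 (3.18) belong to mdx array 1.

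Genes that act with or downstream of the members were followed in 7 lists, each gene on its brightest probe set. The lists were chosen with earlier results of these data known. Their shares of calls are therefore descriptions and no test of the lists against all genes. Among all 12393 genes, 3.17% were called higher and 1.33% lower in mdx against normal. For fiona against mdx the shares were 33.5% and 6.88%, and for fiona against normal 0% and 0%. The median log2 difference over all genes was -0.04, 0.08 and 0.04 in the same order. In fiona against normal, limma called 0 genes of every list, and between 1 and 9 genes a list passed an unadjusted p of 0.05, as did 22.2% of all genes.

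Genes of regenerating fibres were called higher in mdx muscle for 12 of 29 measured, and 0 were lower, with a median difference of 1.29. This list holds embryonic and slow contractile genes, acetylcholine receptor subunits, a fusion factor and cell cycle inhibitors, many of them textbook targets of the MyoD family. Embryonic myosin heavy chain Myh3 was 42.9-fold higher in mdx (log2 difference 5.42, SE 0.44, adjusted p = 4.00e-06 in limma). The embryonic light chain Myl4 was 37.0-fold higher, Tnnt2 32.4-fold and Tnni1, the slow troponin I, 17.8-fold. Between fiona and mdx, 21 of 29 were lower in fiona and 1 was higher, with a median of -1.31. Myl4 was 25.6-fold lower (log2 difference -4.68, SE 0.50), Tnnt2 25.4-fold, Myh3 22.4-fold and Tnni1 21.8-fold. The gene called higher in fiona, Dclk1, a microtubule-associated kinase, differed by 0.44 and was not called with median-centred arrays. With the mean of its probe sets the Dclk1 difference turned sign. When single arrays were left out, 11 to 17 of the 29 were called higher in mdx, and 18 to 21 were called lower in fiona. Set 2 alone called 7 and 0 of them.

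On mdx array 2 these genes were low together with Myog. It was the lowest of the 6 mdx arrays for 9 of the 12 genes called higher in mdx. Myh3 measured 8.19 there, against 9.87 to 11.45 on the other mdx arrays and 4.52 to 5.67 on normal arrays. Tnnt2 measured 6.54, against 8.65 to 10.4 and 3.88 to 4.68. Both therefore stayed above every normal array on mdx array 2, as Myog did. Mymk, the fusion factor myomaker, measured 3.50 on that array and 5.22 to 7.21 on the others. All normal and fiona arrays lay at or under the control level for Mymk, so its excess in mdx was at least 6.44-fold over normal muscle and at least 5.92-fold over fiona muscle. Mymk falls outside the rule for named genes and was chosen after its values were seen.

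**Figure D4:**
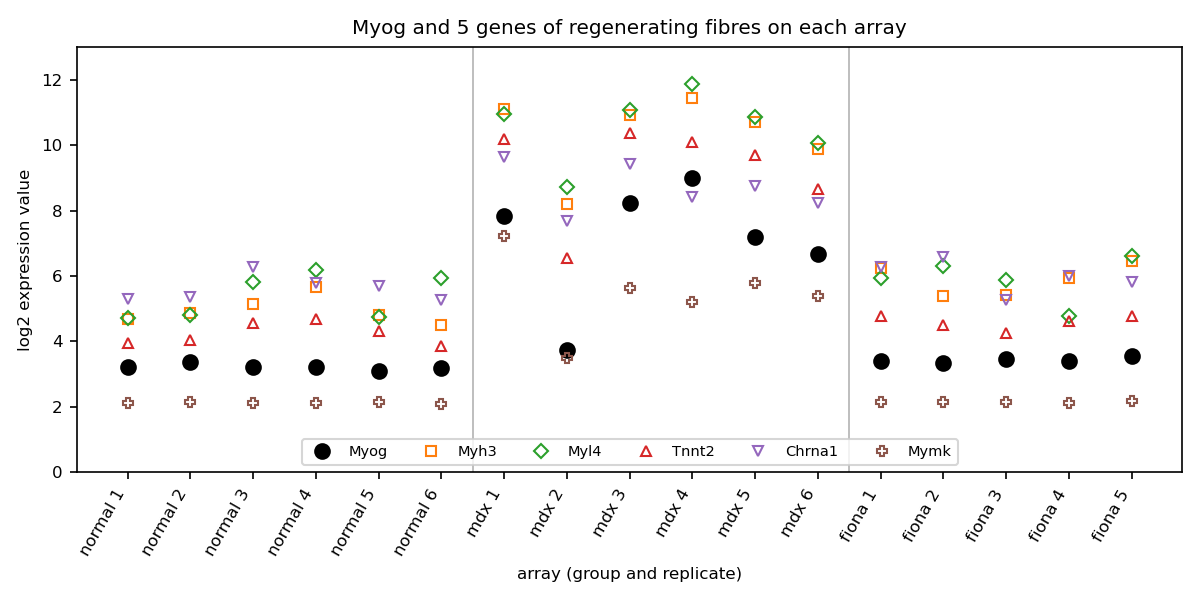
Deposited log2 values (y axis) of Myog, Myh3, Myl4, Tnnt2, Chrna1 and Mymk on each of the 17 arrays (x axis), with vertical lines between the groups. For all 6 genes every mdx array lay above every normal and fiona array, and mdx array 2 had the lowest mdx value.

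Over all 17 arrays, the genes whose pattern was most like that of Myog, among 6188 candidates, were Tnnt2 (Pearson r = 0.975), Ms4a6b (0.975), C1qtnf3 (0.972), Slc25a5 (0.963) and Tubb2b (0.961). These correlations reflect the shared difference between groups. For deviations from the group means r was 0.928, 0.924, 0.933, 0.872 and 0.823, and within set 1 it was 0.41 for Tubb2b. The SD of Myog was 1.84 in mdx and 0.08 in normal and in fiona muscle. These deviations therefore rest mostly on the mdx arrays. For Myod1 the most alike were Tnfaip2 (0.911), Cap1 (0.886), Lmna (0.859), Actg1 (0.849) and Sting1 (0.843). For Cdh15 the values ran from 0.887 for Ifitm3 to 0.868 for Ccdc12. For deviations within set 1, r ran from 0.29 (Actg1) to 0.909 (Tnfaip2) for the genes like Myod1. For those like Cdh15 it ran from 0.157 (Srsf9) to 0.717 (Cd93). All points share the array set and array quality, and these values are descriptions with no test.

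Macrophage markers differed between mdx and the other groups in the same direction as Myog. Of 13 markers, 12 were called higher in mdx against normal and 13 lower in fiona against mdx. Their mean level ranged from 4.13 to 4.96 on normal, from 7.32 to 8.58 on mdx and from 4.36 to 5.17 on fiona arrays. Of 7 measured fibroblast markers, 2 were higher in mdx and 5 lower in fiona, and their mean level ranged from 8.96 to 9.92, from 9.90 to 10.9 and from 7.89 to 9.51. No macrophage or fibroblast marker lay at the control level on all arrays. The part of these cells in the member values was not tested.

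Partners and repressors of the MyoD family, such as E proteins and Id and Hes proteins, showed 1 of 21 genes higher in mdx and 0 lower. That gene, Hes6, which promotes myogenic differentiation, was at least 2.07 higher on the log2 scale (adjusted p = 0.0110 in limma). Of these genes, 3 were higher in fiona than in mdx and 1, Hes6, was lower, by 1.40 (adjusted p = 0.0269). The Hes6 call in fiona was lost without mdx array 3 or mdx array 6. Of the higher ones, Bhlhe41 and Snai1 lay at or under the control level on all arrays of both groups, and Twist2, a repressor of MyoD, differed by 0.32. Median centring left 0 of these 3 called. The median of the list was 0.10 in mdx against normal and 0.07 in fiona against mdx.

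Co-regulators of MEF2, mainly class II histone deacetylases, kinases and co-activators, had 0 of 24 genes called in mdx against normal by limma, and 6 at an unadjusted p under 0.05, which 17.8% of all genes passed. With the array set as a block 4 of the 24 were called lower. The smallest p belonged to Kat2b, a histone acetyltransferase, with a difference of -0.48 (adjusted p = 0.0637). Below 0 lay 21 of the 24 differences, with a median of -0.21. For fiona against mdx 3 were higher and 0 lower, with a median of 0.21. Of these, Hdac9 and Vgll4 lay at or under the control level throughout, and Myocd, the co-activator myocardin, differed by 0.18 and was not called after median centring.

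Other satellite cell genes gave 1 of 32 higher in mdx, Ncam1, a cell adhesion molecule of myoblasts and denervated fibres that also stands in the lists of regenerating fibres and denervation. It was 2.02-fold higher (adjusted p = 0.0140 in limma) and 1.70-fold lower in fiona than in mdx (adjusted p = 0.0189). The Ncam1 call in fiona against mdx was lost with the mean of its probe sets and after quantile normalization. In fiona against mdx 9 genes were higher and 3 lower. Of the 9, Met, Calcr, Eya2, Foxk1 and Barx2 lay at or under the control level on all arrays of both groups, and median centring left 0 of the 9 called. The lower genes besides Ncam1 were Notch2, a receptor of the pathway that keeps satellite cells at rest, by at least 1.47, and Erbb3, a neuregulin receptor, by 0.95 on the log2 scale. The Erbb3 call was lost without mdx array 3 or 5 or fiona array 5. Nes, the intermediate filament nestin, was 0.65 higher, a call lost when any of 7 arrays was left out. The median of the list was -0.04 and 0.10.

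Denervation-responsive genes, which include targets of Myog in fibres without nerve supply, were higher in mdx for 5 of 17, with 0 lower. They were Sln, the calcium pump inhibitor sarcolipin, at least 25.0-fold (adjusted p = 1.96e-05 in limma), Ankrd1, a stretch-responsive titin partner, 9.39-fold, Chrna1 8.46-fold, Cdkn1a, the cell cycle inhibitor p21, 2.66-fold, and Ncam1. In fiona against mdx 7 were lower and 2 higher. Sln was at least 18.0-fold lower, Chrna1 6.52-fold and Ankrd1 4.91-fold. Dach2, a repressor of Myog, was 1.47 higher on the log2 scale, a call lost without fiona array 1 or 4 and with median-centred arrays. The list shares Ankrd1, Cdkn1a, Chrna1, Chrnd, Chrng and Ncam1 with the list of regenerating fibres, so they are not independent. The median was 0.20 in mdx against normal and -0.15 in fiona against mdx.

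Genes of adult fast fibres, the mature targets of MyoD and MEF2 factors, were mostly not called. In mdx 1 of 28 was lower, Myh2, the type IIA myosin heavy chain, by 2.40 on the log2 scale (adjusted p = 0.0332 in limma), a call lost when any of 7 arrays was left out. In fiona against mdx 3 were higher, Myh2 by 2.56, Mb, the oxygen store myoglobin, by 0.57, and Myh1, the type IIX heavy chain, by 0.22. The Myh1 call was lost with median-centred arrays. The list medians were -0.17 and 0.13.

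Among proliferation genes, 3 of 29 were higher in mdx and 0 lower. Rrm2, a subunit of ribonucleotide reductase, measured 7.27 ± 0.24 in mdx and 3.28 ± 0.21 in normal muscle (SD, n = 6 each), a 15.9-fold difference (adjusted p = 2.03e-11 in limma). Pcna, the clamp of DNA polymerase, was 1.87-fold higher, and Ube2c, a mitotic ubiquitin enzyme, 1.64-fold, with the latter call lost in 5 of 17 fits that left out an array. Relative to mdx, 4 were lower and 6 higher in fiona. Rrm2 fell by 3.84, Pcna by 0.91 and Ube2c by 0.66 on the log2 scale, and Mki67, the Ki-67 antigen, by 0.93 with a call kept in 4 of 17 such fits. Of the 6 higher genes, Plk1 lay at or under the control level throughout, and with median-centred arrays 2 genes of the list were called higher. The list medians were 0.05 and 0.05.

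**Figure D5:**
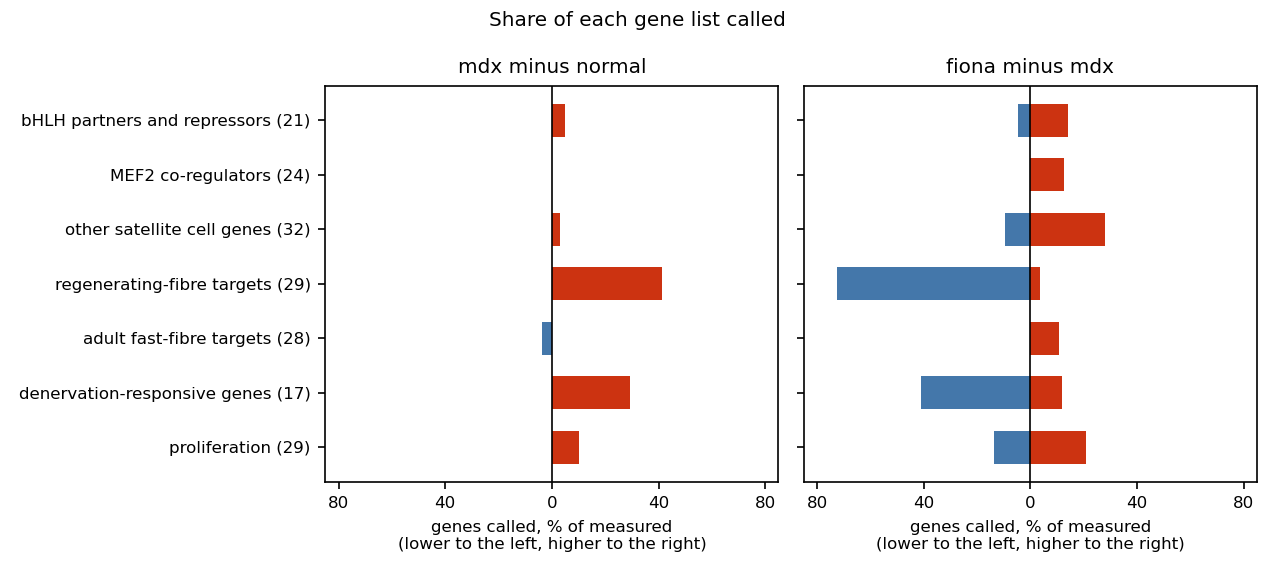
Share of the measured genes of each list (y axis, with their number) that was called higher (right) or lower (left) at an adjusted p under 0.05, as a percentage (x axis), for mdx minus normal and fiona minus mdx. The list of regenerating fibres stands at 12 of 29 higher and then 21 of 29 lower. The lists of MEF2 co-regulators and adult fast fibres have few calls. All lists were chosen with earlier results of these data known.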

How the data were processed

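Total RNA of 17 tibialis anterior samples (8 µg each) was hybridised to single-channel Affymetrix arrays. The deposited table holds log2 values per probe set. Per the submitters' processing notes, the tools were RMA and GCRMA; the sources used here do not say which of these produced the values. Raw images were not used. Of 22690 probe sets, 64 controls, 691 with several symbols and 1555 with none were left out. The members and lists were chosen with earlier results of these data known.

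A single model of 3 group means was fitted in limma 3.58.1 (R 4.3.3), which was tested on simulated data. Exact permutation tests were two-sided. Where an array of the dimmer group lay at or under its control level (the median of 15 bacterial probe sets), that level replaced the value and the difference is written as at least that size. Named were all member probe sets and up to 4 called genes per list and comparison with the largest difference, or the gene with the smallest p. Of 249 list entries, 19 were not measured here. Alternatives comprised 16 other settings and 17 fits that left out 1 array each. One of these, array set and sex pattern together, was chosen after seeing the data. Plots used matplotlib 3.10.9 under Python 3.11.15.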

Additional observations from a re-analysis of the deposited data

Results flagged for a closer look

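Single arrays stood far from the rest of their group in 4 of 54 groups of member values. For independent groups of normally distributed values, chance alone would give such a gap in about 1 in 20 groups. These groups share arrays and genes, and 4 of 54 is not far above that share. On the second brightest Mef2a probe set, mdx array 1 measured 6.234, against 9.04 to 9.53 on the other mdx arrays. The same array was lowest on the third brightest Mef2c probe set with 8.982, against 10.27 to 10.44. On the dimmest Mef2c probe set, fiona array 2 measured 5.555, against 8.55 to 9.63 on the other fiona arrays. On the dimmest Mef2a probe set, mdx array 5 was highest with 3.27, against 3.01 to 3.10, close to the control level.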

How the results depend on the processing

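The count of member probe sets called higher or lower in mdx against normal was 1. It became 2 with a filter on dim probe sets (Myod1 and Myog), 6 with array quality weights, 3 with the array set as a block and also with array set and sex pattern together, 5 in set 1 alone, 0 in set 2 alone and 0 on arrays with the male pattern. It ranged from 1 to 2 when single arrays were left out, with 2 without normal array 1, normal array 6 or fiona array 5. For fiona against mdx the count was 3. It became 5 with the array set as a block and 1 in set 2 alone (Mef2a). It became 2, without Pax7, with a filter on dim probe sets, median-centred arrays or quantile normalization. The same held with the replicate number as a block or values raised to the control level. Leaving out single arrays gave 2 to 4. Where the count stayed at 3 the members could change. Cdh15 stood in place of Pax7 with the sex pattern as a covariate, Myf5 in set 1 alone and Myod1 with only the 2 groups compared. For fiona against normal it was 0, and became 1 in set 2 alone (Mef2a). Counts with fiona are not given for arrays with the male pattern, which include 1 fiona array. Counts of member genes on the brightest probe set were the same in these settings, with 1 exception. Without mdx array 1, the count for fiona against mdx was 3 in place of 4, as the second Mef2a probe set was called. Among differences called as deposited or under the alternative, those that reversed were Pax7 in fiona against mdx (-0.0346 with median-centred arrays, -0.0397 after quantile normalization) and the second brightest Mef2a probe set in fiona against mdx (-0.4414 without mdx array 1, with a range from -0.4414 to 0.2172 over the arrays left out). Of the 50 member differences not called as deposited, 29 turned sign under at least 1 alternative, among them Myod1, Myf5 and Myog in fiona against normal, so their directions are not settled. The cause was not tested. Whether replicate numbers pair the arrays could not be settled. The deviations of 16 same-numbered pairs correlated from -0.508 to 0.61, and 1 of 17 arrays correlated best with its own number. Same-numbered normal and mdx arrays all correlated positively, from 0.104 to 0.61. In these groups the number also tracks the array set, so pairing and set cannot be told apart. With the replicate number as a block, the member counts were 1, 2 and 0, and 697, 598 and 2 of all probe sets were called, against 826, 8187 and 1 without it. Signal limited Pax7 and the dimmest Mef2a probe set, which lay within 0.4 of the control level on average.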
